A study of Terfezia claveryi
Helianthemum almeriense and Terfezia claveryi with 9 samples.

Results

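Fungal transcripts of the desert truffle Terfezia claveryi were compared between drought-stressed and well-watered mycorrhizal roots of its host, the shrub Helianthemum almeriense. The comparison uses 6 of the 9 libraries of the study, 3 per watering regime, and all 12765 gene models listed for each library. Plants were inoculated with a spore solution 2 months after germination and grown in pots of 300 mL. From 3 months after inoculation, soil moisture was kept above 75% for well-watered plants, or lowered to 40% for drought plants until the shoot water potential was below -2 MPa. Secondary and tertiary roots were frozen, and RNA from 100 mg of tissue was sequenced as pairs of 75 bases. The submitters' design names the 3 samples of a group as biological replicates. The sources used here do not say whether a root sample came from 1 plant or from several, or which fungal genotypes grew from the spores. P-values therefore set the difference between the groups against the spread between these samples, whatever the source of that spread.

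Desert truffles are ascomycete fungi that fruit underground in dry regions and live in mutualism with rockrose shrubs. Terfezia claveryi forms mycorrhizas in which hyphae grow between and, under some conditions, inside root cells, so a single root sample holds RNA of both partners. The fungus receives sugars from the plant and in turn supplies mineral nutrients and helps the host through drought. The question asked by the comparison is which fungal transcripts differ in the root when the plant is short of water. The files identify gene models by number, without product names or sequences, so no function or genome position is given for any of them, and the root label could not be checked against marker genes.

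Drought libraries held more fungal reads than well-watered libraries. Well-watered replicates 1, 2 and 3 had 1333925, 1635015 and 869998 total gene reads and drought replicates 1, 2 and 3 had 5470044, 3543782 and 3493361. The groups did not overlap, and the mean was 3.26-fold higher under drought; the exact two-sided permutation test gave p = 0.1 (n = 3 each), the smallest that 3 against 3 libraries allow. Totals count only reads placed on fungal gene models, so more fungal cells and more fungal RNA per cell cannot be told apart, and depth cannot be told apart from watering. All levels below are therefore relative to the fungal total of each library, given as CPM (counts scaled to the same total gene reads in every library), or as the deposited RPKM where gene models are compared with each other per length.

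The profile of the fungal transcript pool separated the watering regimes. Bray-Curtis dissimilarity of CPM, which is the share of reads placed on different gene models in a pair of libraries, was 31.1 to 44.7% between regimes and 7.50 to 22.9% within them. The mean between regimes exceeded the mean within them by 20.5 percentage points (exact permutation test, one-sided for a larger difference, p = 0.1, the smallest possible). Within each regime, 1 library stood apart and the other 2 were close. Well-watered replicates 2 and 3 differed by 7.77% and drought replicates 1 and 3 by 7.50%, whereas well-watered replicate 1 was 21.3 and 22.4% from its group and drought replicate 2 was 21.2 and 22.9%. The close pairs still differed by more than counting noise, which gives a chi-square per degree of freedom of about 1: over 4038 gene models with a mean of at least 50 CPM it was 4.42 for well-watered replicates 2 and 3 and 13.9 for drought replicates 1 and 3. This does not tell separate plants from separate preparations of one sample. If a close pair shared a source, its group would hold fewer independent samples than 3, and the adjusted p values below would be too small. All 3 were counted, as the labels name them. The level differed 2-fold or more in 4.04% and 0.471% of these gene models in the close pairs, and in 17.4 to 21.6% in the other within-group pairs. Well-watered replicate 1 was the well-watered library nearest to every drought library, and drought replicate 2 was the drought library farthest from every well-watered library.

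**Figure D1:**
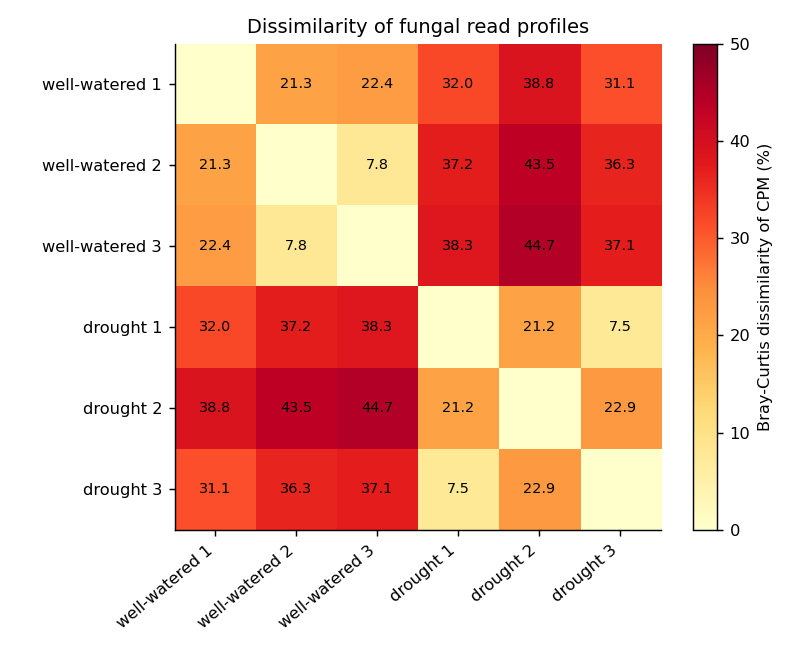
Bray-Curtis dissimilarity (percent, colour and printed value) of fungal CPM profiles for each pair of the 6 root libraries, named by regime and replicate on both axes. Pairs across regimes run from 31.1 to 44.7%, and each regime holds 1 close pair, at 7.77% in well-watered and 7.50% in drought roots.

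Among the 8029 gene models with enough reads to be tested, 765 rose and 822 fell with drought, by edgeR's quasi-likelihood test at a Benjamini-Hochberg adjusted p under 0.05. This is 19.8% of those tested, with 9.53% higher and 10.2% lower. A median called rise was 2.01 and a median called fall -1.90 on the log2 scale, while the median change of all tested gene models, whatever its sign, was 0.67. When the size of the change was itself tested against 2-fold (edgeR glmTreat, adjusted p under 0.05), 345 gene models were higher and 308 lower by more than that, which is 8.13% of those tested, 4.3% higher and 3.84% lower. Calls spread over small and large changes. By the fitted fold, 33 rises and 48 falls were under 2-fold, 348 and 401 were 2 to 4-fold, 255 and 306 were 4 to 16-fold, and 129 and 67 were 16-fold or more.

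**Figure D2:**
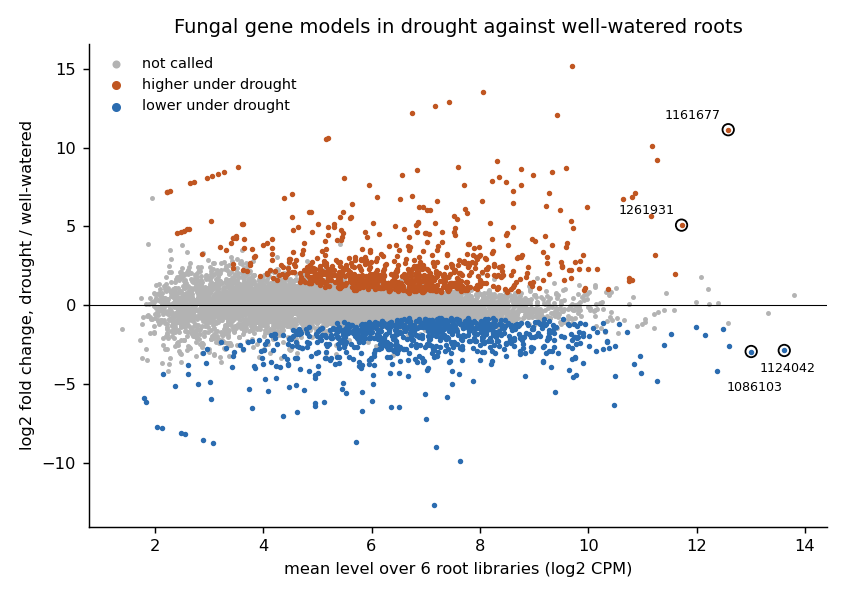
Fitted log2 fold change of drought over well-watered roots (vertical axis) against mean level in log2 CPM (horizontal axis) for 8029 tested gene models. Orange points are the 765 called higher, blue the 822 called lower and grey the rest; circles mark the 4 gene models described singly.

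Groups rarely overlapped where a gene model was called. The 3 drought libraries all lay above the 3 well-watered libraries for 763 of the 765 rises, and all below for 804 of the 822 falls. Since the calls were made on these libraries, separation is favoured among them, and these counts describe the calls and do not test them. The same separation was found for 3416 gene models, 42.5% of all tested, 25.5% upward and 17% downward, so 1849 separated gene models were not called. A stricter count asks for a gap between the nearest libraries of the regimes, on the CPM + 1 scale. The lowest drought library was at least 4-fold above the highest well-watered library for 208 gene models, and the highest drought library at least 4-fold below the lowest well-watered library for 99. At a gap of at least 16-fold these numbers were 65 and 12. All counts of separation use CPM, scaled by total gene reads, whereas the edgeR calls use TMM scaling. Their balance of upward and downward was not tested under TMM.

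The number of calls depended on which libraries were used. Without well-watered replicate 2 or 3 it was 874 or 879, and without drought replicate 1 it was 1074 with 536 falls. With both libraries that stood apart left out, a setting chosen after seeing the data, 1544 gene models were higher and 1566 lower, 3110 in all. Of the 1587 calls on all 6 libraries 1538 were among these with the same direction, which is 96.9% of the former and 49.5% of the latter. Only the close pairs remain in this setting. If a close pair shared a source, the adjusted p values of this setting would be too small and its calls too many. Scaling by total gene reads instead of TMM moved the median log2 fold change of all gene models from 0.08 to 0.22 and the calls to 940 higher and 686 lower, so which direction holds more gene models is a matter of scaling.

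The difference between the regimes covered a large part of the transcript pool. Between the mean profiles of the regimes, 34.9% of fungal reads lay on different gene models. Single libraries of the same regime already differed by 7.50 to 22.9%, and the part of this spread in the 34.9% was not tested. The 765 raised gene models took 4.63, 3.90 and 3.80% of reads in the well-watered libraries and 24.6, 27.6 and 23.3% in the drought libraries. The 822 lowered gene models took 29.4, 37.1 and 37.4% in the well-watered libraries and 9.66, 8.13 and 10.1% in the drought libraries. Both sets were selected on these libraries, so their shares describe the calls and do not test them. Well-watered replicate 1 had the highest share of the raised and the lowest share of the lowered gene models in its group, and drought replicate 2 had the highest and the lowest shares in its own.

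**Figure D3:**
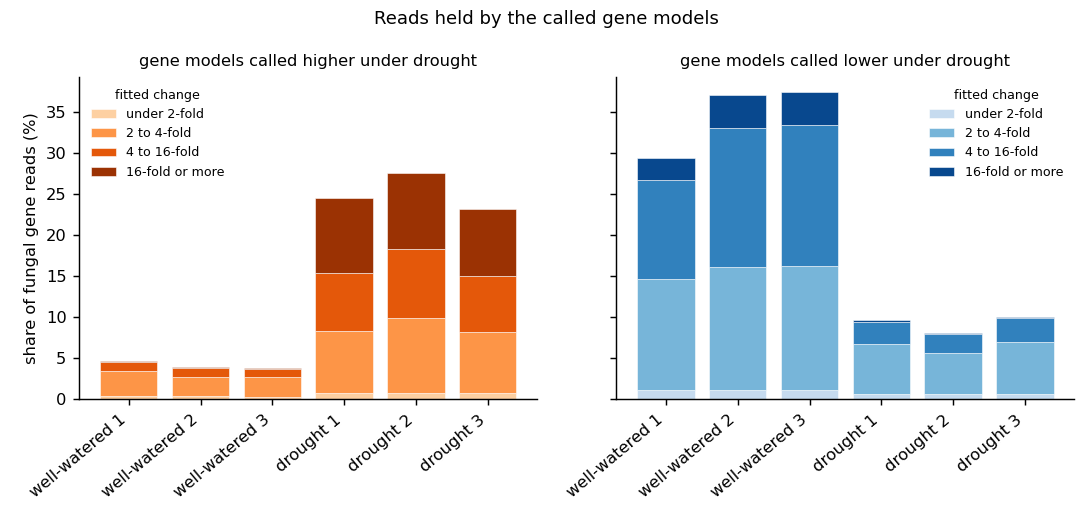
Share of fungal gene reads (percent, vertical axis) in each root library held by gene models called higher (left) and lower (right) under drought, stacked by fitted fold change. Raised gene models go from 3.80 to 4.63% in well-watered to 23.3 to 27.6% in drought libraries, and lowered ones from 29.4 to 37.4% to 8.13 to 10.1%.

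The shift was spread over many gene models. The higher mean levels under drought summed to the same 34.9% of reads as the lower ones, and 144 gene models held 50% of the gain and 103 held 50% of the loss. Called gene models held 60.2% of the gain and 72.6% of the loss. The 10 gene models with the largest gain in mean CPM held 16.8% of it, and the 10 with the largest loss held 20.3%. Together the former took 1.68, 1.41 and 1.18% of reads in well-watered and 8.14, 6.64 and 7.13% in drought libraries. The latter took 8.15, 9.28 and 9.28% in well-watered and 1.85, 1.69 and 1.89% in drought libraries.

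Among called gene models without overlap between the regimes, the largest rise in mean CPM was that of jgi|Tercla1|1161677|, a gene model of 1497 bases. It was at 0.750, 11.6 and 1.15 CPM in well-watered replicates 1, 2 and 3, which is 1, 19 and 1 reads, and at 19412, 691 and 17833 CPM in drought replicates 1, 2 and 3. Every drought library was above every well-watered one, but drought replicate 2 was far below the other 2. The log2 fold change was 11.13 ± 1.28 (SE; 95% interval 8.26 to 14.03; edgeR adjusted p = 0.001435). It was 13.62 without well-watered replicate 2, which held 19 of the 21 well-watered reads. Limma-voom gave 10.77 ± 4.54 (SE) with an adjusted p of 0.144, and over all alternatives its adjusted p ran from 2.95e-11 to that value. Per length it was the gene model ranked 6 in mean RPKM of drought roots and ranked 8198 in well-watered roots.

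The next largest rise was that of jgi|Tercla1|1261931| (2036 bases). It stood at 182, 191 and 175 CPM in the well-watered libraries and at 9747, 2771 and 7857 CPM in drought replicates 1, 2 and 3. The well-watered libraries were close to each other, and drought replicate 2 was again the lowest of its group. The log2 fold change was 5.08 ± 0.46 (SE; edgeR adjusted p = 0.0002045). Its mean RPKM was 89.7 ± 3.96 in well-watered and 3336 ± 1772 in drought roots (SD, n = 3 each), with 0.0690% of its reads shared with other gene models.

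The largest fall in mean CPM was that of jgi|Tercla1|1124042| (2288 bases), from 13858, 23854 and 24252 CPM in the well-watered libraries to 2888, 3816 and 2891 CPM in the drought libraries. Well-watered replicate 1 was the lowest of its group and still several times above every drought library. The log2 fold change was -2.86 ± 0.40 (SE; edgeR adjusted p = 0.001348). In well-watered roots only 2 gene models were more abundant per length: it ranked 3 there, at 9027 ± 2574 RPKM, and 62 in drought roots, at 1398 ± 234 (SD, n = 3 each).

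Next came jgi|Tercla1|1086103| (1632 bases), which fell from 16700, 12001 and 12834 CPM to 2351, 1265 and 2368 CPM. Drought replicate 2 was the lowest library and the groups were far apart. The log2 fold change was -2.93 ± 0.39 (SE; edgeR adjusted p = 0.001006), and its rank per length went from 5 to 73. No read of either falling gene model, and none of jgi|Tercla1|1161677|, was shared with another model. All 4 named gene models kept their direction in all 16 alternatives, and for 3 of them the adjusted p was under 0.05 in each.

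**Figure D4:**
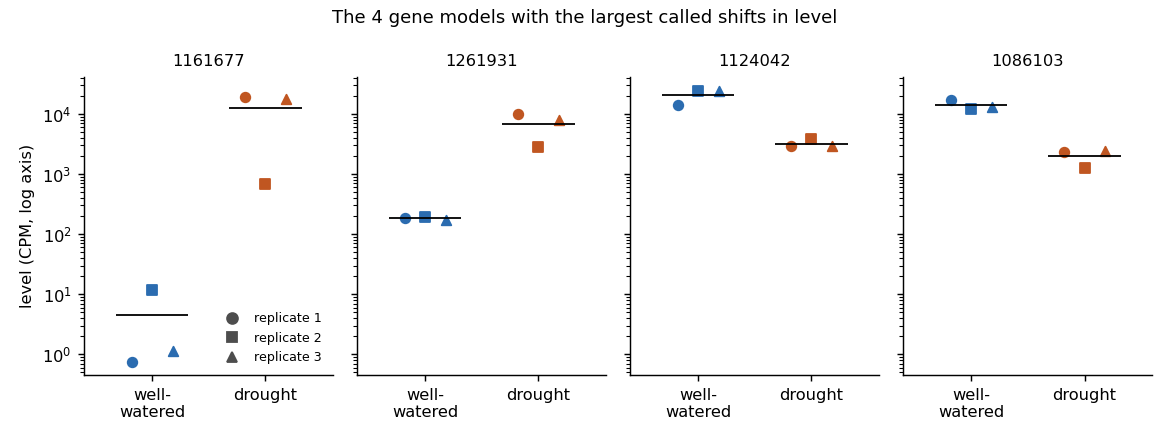
Level (CPM, log axis) of the 4 gene models in each root library, with a marker shape per replicate and a line at the group mean. In jgi|Tercla1|1161677| and jgi|Tercla1|1261931| drought replicate 2, at 691 and 2771 CPM, lies below drought replicates 1 and 3 and above every well-watered library.

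Other gene models with large shifts followed more than 1 pattern across libraries. The lists of the 10 largest gains and the 10 largest losses were ranked on the libraries that were also tested. Calls among them are thus favoured by the choice and are no test. Where 9.53% of all tested gene models rose, 8 of the 10 with the largest gain were called. The 6 of these not yet described had group means of 3.49 to 1247 CPM in well-watered and 3893 to 5173 CPM under drought, with log2 fold changes of 1.96 to 10.09 and edgeR adjusted p of 1.37e-05 to 0.0487. They were 354 to 3318 bases long. In each of these 6, drought replicate 2 was the highest drought library, the reverse of the named rises. The other 2 of the 10 did not pass the test. A gene model of 575 bases stood at 12094, 10656 and 8702 CPM in well-watered and at 15989, 26827 and 12121 CPM in drought libraries, where the groups were separated by a small margin (edgeR adjusted p = 0.293). A gene model of 318 bases stood at 793, 2348 and 2134 CPM in well-watered and at 9924, 1283 and 9664 CPM in drought libraries (edgeR adjusted p = 0.103), with drought replicate 2 inside the well-watered range.

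Where 10.2% of all tested gene models fell, 9 of the 10 gene models with the largest loss were called, a list ranked in the same way. The 7 not yet described had means of 3695 to 9996 CPM in well-watered and 181 to 3171 CPM in drought roots, with log2 fold changes of -4.79 to -1.48 and edgeR adjusted p of 0.000106 to 0.0125. The tenth, of 918 bases, stood at 5715, 8879 and 8939 CPM in well-watered and at 3950, 3683 and 4287 CPM in drought libraries. Its groups did not overlap, and its edgeR adjusted p was 0.0525.

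The most abundant gene models per length were in part different ones. Of the 50 with the highest mean RPKM in each regime, 17 were the same. Of the 50 of well-watered roots 24 fell and 2 rose, and of the 50 of drought roots 32 rose and 1 fell (edgeR adjusted p under 0.05), where 9.53% of all tested gene models rose and 10.2% fell. Of the 100 most abundant, 44 were the same, 41 of those of well-watered roots fell and 49 of those of drought roots rose. The median RPKM of the well-watered 50 was 1973 in well-watered and 1280 in drought roots. That of the drought 50 was 480 in well-watered and 2845 in drought roots. Since each list was ranked on 1 of the groups compared, these counts describe the lists and are no test. Pairs of libraries of different regimes shared 10 to 20 of their own 50 most abundant gene models. Well-watered replicates 2 and 3 shared 47 and drought replicates 1 and 3 shared 46. Well-watered replicate 1 shared 30 and 29 with its group, and drought replicate 2 shared 38 and 36.

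The pool was less concentrated in each drought library than in each well-watered library. The 10 most abundant gene models of each library took 10.2, 10.9 and 10.7% of reads in well-watered and 9.56, 7.75 and 8.64% in drought libraries. For the 100 most abundant the shares were 26.8, 29.0 and 28.9%, and 26.6, 24.1 and 25.2%. In both measures all drought libraries lay below all well-watered ones (exact two-sided permutation p = 0.1, the smallest possible; Benjamini-Hochberg adjusted 0.12 over 6 measures of whole libraries). For the 100, drought replicate 1 and well-watered replicate 1 were nearly level.

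For 1100 gene models, 13.7% of those tested, the 95% interval of the log2 fold change lay inside -1 to 1, so a change of 2-fold or more in either direction is outside the interval. These took 19.1, 16.6 and 16.7% of reads in well-watered and 18.7, 19.5 and 19.0% in drought libraries. For 5342 gene models, 66.5% of those tested, the data neither gave a call nor bounded the change within 2-fold. The median interval of all tested gene models reached 0.92 to either side on the log2 scale. Leaving out well-watered replicate 2 or 3 gave 551 or 706 bounded gene models, and leaving out drought replicate 1 or 3 gave 414 or 522. Without the libraries that stood apart, which keeps only the close pairs, 1731 were bounded.

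Calls were more frequent among abundant gene models. When tested gene models were split into 4 equal classes by their mean log2 CPM over all 6 libraries, 106 rose and 88 fell in the lowest class, 187 and 145 in the second, 238 and 197 in the third, and 234 and 392 in the highest. The share called went up with level from 9.66 to 31.2% while the median standard error went down from 0.83 to 0.30, and the part of precision in this was not tested. The median reads per library in the lowest class were 11 in well-watered and 42.3 in drought roots, against 256 and 827 in the highest. In the highest class the falls outnumbered the rises under each scaling tried. There, 217 rose and 431 fell with DESeq2 size factors, and 279 rose and 318 fell with total gene reads. The median log2 fold change of that class was -0.20, -0.26 and -0.06 under the 3 scalings. Its gene models took 75.9, 77.5 and 77.5% of reads in well-watered and 72.7, 68.4 and 72.5% in drought libraries.

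Short tested gene models held a larger share of the reads in each drought library than in each well-watered library, in part through a few of them. Tested gene models up to 300 bases took 0.489, 0.505 and 0.535% of reads in well-watered and 1.14, 1.26 and 1.06% in drought libraries. Those over 300 and up to 600 bases took 6.33, 5.40 and 4.97%, and 9.11, 10.6 and 8.24%. Neither class overlapped between the regimes. In the former, 1 called gene model of 270 bases held 0.362, 0.456 and 0.305% of drought reads, and without it the class took 0.485, 0.503 and 0.533% in well-watered and 0.781, 0.808 and 0.752% in drought libraries. In the latter, 4 of the 10 gene models with the largest gain, among them both that were not called, took 3.54, 4.09 and 3.05% of drought reads. Without them the class took 4.76, 4.05 and 3.84% in well-watered and 5.56, 6.47 and 5.19% in drought libraries. Of 104 tested gene models up to 300 bases, 12 rose and 2 fell, a share called of 13.5%, below the 19.8% of all tested. Of 744 over 300 and up to 600 bases, 62 rose and 45 fell. Above 2400 bases 141 rose and 176 fell of 1402, but 172 rose and 144 fell when libraries were scaled by total gene reads, so the direction in long gene models depends on the scaling. A general tilt with length was small and rested on 1 library. The median log2 ratio, on the CPM + 1 scale, of models up to 300 bases minus that of models over 2400 bases was 0.04 and -0.01 in drought replicates 1 and 3 and 0.52 in drought replicate 2, each against the well-watered mean. The part of RNA quality in this was not tested.

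**Figure D5:**
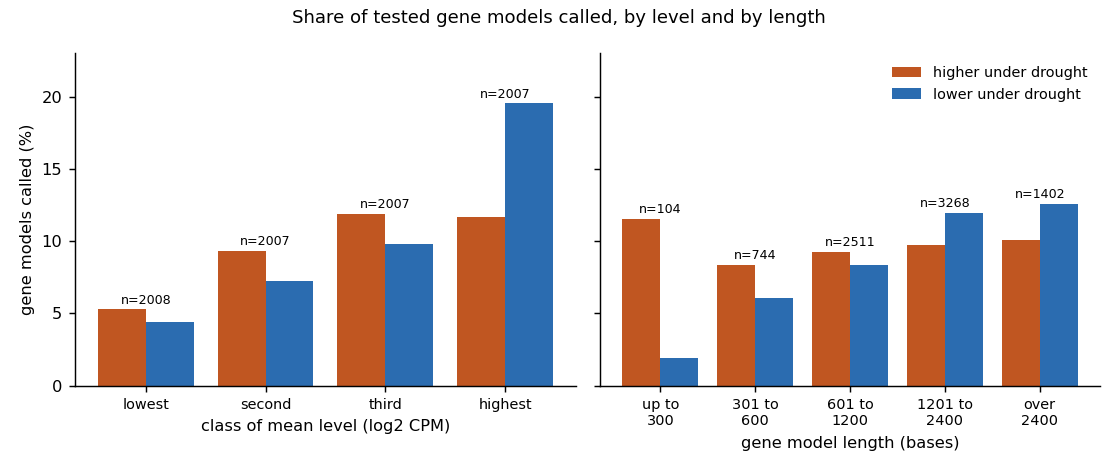
Share of tested gene models called higher (orange) or lower (blue) under drought (percent, vertical axis), by class of mean level (left) and by gene model length in bases (right), with the number tested above each pair. The share called lower reaches 19.5% in the highest class of level, and is 1.92% in gene models up to 300 bases.

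Gene models that share most of their reads with others, as copies of a multigene family do, were called lower at 16.2% and higher at 7.33% where 50 to 90% of reads were shared (31 and 14 of 191). Where over 90% were shared, 9.27% were called lower and 1.99% higher (14 and 3 of 151). The shares over all tested gene models were 10.2% lower and 9.53% higher. Without any shared read, 681 rose and 704 fell of 6982. Over whole libraries the shared part of total gene reads was 3.04, 3.03 and 3.16% in well-watered and 2.38, 2.45 and 2.38% in drought libraries (exact two-sided permutation p = 0.1, the smallest possible). With DESeq2 size factors 12 rose and 34 fell where 50 to 90% were shared, and 3 and 15 where over 90% were. Scaled by total gene reads, these numbers were 14 and 25, and 7 and 13. The sources used here do not say how shared reads were divided between copies, and the levels of single models in these classes are uncertain. Copies that share reads can be called together, so these counts are not of independent gene models.

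The 2 libraries that stood apart also held a particular place among the called gene models, drought replicate 2 in rises and falls and well-watered replicate 1 in falls. Among the 765 rises, drought replicate 2 was the highest drought library in 540, which is 70.6%, against 44.8% of all tested gene models. Among the 822 falls it was the lowest drought library in 513, which is 62.4%, against 40.8% of all tested. Well-watered replicate 1 was the lowest well-watered library in 511 of the falls, which is 62.2%, against 32.7% of all tested. It was the highest in 372 of the rises, which is 48.6% and near the 46.4% of all tested. The calls were made on these libraries, so the counts are a description.

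Drought replicate 2 further lacked transcripts that the other 5 libraries held. A set of 82 gene models had 0 reads in it and at least 10 reads in each other library. The same count was 2, 3 and 22 for well-watered replicates 1, 2 and 3 and 3 and 1 for drought replicates 1 and 3. After each library was thinned to 869998 reads it was 27 for drought replicate 2 and 0 to 3 for the others. The 82 gene models had a median length of 1113 bases and median levels of 31.6 CPM in the well-watered libraries and 10.5 CPM in drought replicates 1 and 3, where they had a median of 54 and 36 reads. They took 0.334, 0.427 and 0.471% of reads in the well-watered libraries. Of the 82, 24 were called lower and 0 higher, where 10.2% of all tested gene models were called lower and 9.53% higher. The choice of 0 reads in a drought library favours calls of a fall. So does the minimum of 10 reads, which asks for a higher CPM in the well-watered libraries, since their totals are smaller. The difference between the 2 median levels is favoured by that minimum too and is no result about these gene models. By another rule, 133 tested gene models were at least 8-fold lower in drought replicate 2 than in both other drought libraries, on the CPM + 1 scale. The same count was 4 and 8 for drought replicates 3 and 1. This rule can take in gene models of the set of 82, so the 2 numbers do not add up, and the overlap was not counted. One of the 133 is jgi|Tercla1|1161677|. The other 132 took 1.35, 1.29 and 1.38% of reads in well-watered libraries, 1.09 and 1.16% in drought replicates 1 and 3, and 0.0683% in drought replicate 2. These sets were chosen after the values were seen. Genes missing from the fungi of that sample and silent genes cannot be told apart by reads alone.

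The number of gene models with a read did not separate the regimes at equal depth. At 869998 reads, the expected number with at least 1 read was 8690, 8845 and 8538 in well-watered and 8864, 8215 and 8907 in drought libraries, with the lowest and the highest both in the drought group (exact two-sided permutation p = 1). With at least 5 reads it was 7416, 7450 and 7394 in well-watered and 7590, 7482 and 7659 in drought libraries, where the groups did not overlap (exact two-sided permutation p = 0.1, the smallest possible). Over all 6 libraries at full depth, 7465 gene models had a read in each and 2578 had none in any. In the thinned libraries 468 gene models had a read in drought libraries alone and 488 in well-watered libraries alone. With the minimum of 5 reads in each library of a regime and none in the other, these numbers were 18 for drought and 10 for well-watered roots.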

How the data were processed

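Each deposited file holds, per gene model and library, RPKM and 2 columns of counts by the authors, total gene reads and those of them unique to the model. Per the submitters' processing notes FastQC, Bowtie2 2.3.0 and SAMtools 1.7 were used; the sources used here do not name the genome build, counting program, filters or strand setting. The deposited RPKM were found to follow from total gene reads, gene model length and library total, and from this relation lengths of 156 to 16791 bases were solved, whole within a relative tolerance of 1e-06 for all 10187 gene models with a read. Replicate and group come from the labels. Cultures were not used.

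Total gene reads of the 6 root libraries (869998 to 5470044; gene models that fail the low-count filter hold 0.268 to 0.341% of reads) were fitted with edgeR 4.0.16 in R 4.3.3: filterByExpr, TMM, robust dispersions and the quasi-likelihood F test with group as the single term, and Benjamini-Hochberg adjustment over all 8029 tested. Standard errors and 95% intervals come from the fitted weights and the moderated quasi-dispersion. In libraries simulated from the real means and dispersions (7792 genes tested), edgeR called 4.08% of the 2-fold changes, 78% of the 4-fold, 84% of the 8-fold and 98% of the 16-fold ones. Of its 140 calls 9 were false, and 95.3% of intervals held the true value. The simulation left 7594 of the 7792 genes unchanged and gave 140 calls, against 1587 of 8029 in the data. The adjusted p depends on the share of changed genes, so these rates of calls and false calls do not carry over to this comparison. Alternatives were other scalings and filters, DESeq2 1.42.0, limma-voom (limma 3.58.1), unique gene reads, thinning, a replicate block, and leaving out libraries. Whole-library measures used exact permutation tests (SciPy 1.17.1).

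Replicate numbers were not taken as pairs. The named gene models are the 2 called ones with the largest rise and the 2 with the largest fall in mean CPM without overlap between regimes; the rule took more had product names been given. The comparison, classes and rules were chosen with earlier results of these data known. No molecular identifiers are mentioned, so reads may repeat molecules, and the chi-square and thinned values cover counting error only.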

Additional observations from a re-analysis of the deposited data

How the results depend on the processing

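The number of changed gene models was 1335 to 1969 under other scalings, filters, counts, thinning, limma-voom, DESeq2 and the replicate block, and 785 at an adjusted p under 0.01. With the replicate block it was 1335, with 663 higher and 672 lower, and 1275 calls were shared with the fit without it. Deviations from the group means of same-numbered samples correlated at -0.03, 0.05 and 0.07 for numbers 1, 2 and 3. This was the highest value of the sample for numbers 2 and 3 and not for number 1. With 3 libraries per group these values cannot decide whether a number marks a shared batch. Leaving out 1 library at a time gave 874 to 1747 changed, 448 to 831 higher and 424 to 916 lower; by more than 2-fold it gave 374 to 707, with 222 to 340 higher and 152 to 367 lower; and 414 to 1281 were bounded within 2-fold. Without both libraries that stood apart, which keeps only the close pairs, the numbers were 3110, 1544, 1566, 1165, 535, 630 and 1731 in the same order. No gene model called both on all 6 libraries and in an alternative changed direction. Rises made up 48.2% of calls, 57.8% with total gene reads, 43.9% with DESeq2 size factors, 42.4% with the DESeq2 test and 40.5% with limma-voom. The difference in gene models detected at one depth, drought minus well-watered, was -28.9 and turned to 157 with a minimum of 5 reads, and ran from -151 to 195 when single libraries were left out, positive without well-watered replicate 2 (48.2) or drought replicate 2 (195); the cause was not tested. The adjusted p of jgi|Tercla1|1161677|, which has the largest called rise in mean CPM but not in fitted fold, was above 0.05 with limma-voom alone (0.144). The total of reads, the dissimilarity and the shares of the 10 and 100 most abundant gene models kept their direction in every alternative tried; none was run for the share of reads not unique to a model. Gene models of the lowest level class had a median of 11 reads per well-watered library. Over all levels 4.08% of simulated 2-fold changes were called, in a simulation that gave fewer calls than the data.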
